A study of Mus musculus with 9 samples.

Results

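The genes described here encode the nuclear subunits of respiratory complexes II to V, the machinery that passes electrons from succinate and ubiquinone to oxygen and makes ATP. They were taken by symbol: Sdha, Sdhb, Sdhc, Sdhd, Cyc1, Cycs and every symbol that starts with Uqcr, Cox4, Cox5, Cox6, Cox7, Cox8 or Atp5. The rule found 49 of the 24420 genes in the count table: 4 of complex II, 9 of complex III, the electron carrier cytochrome c (1 gene), 18 of complex IV and 17 of complex V. A few of them are not subunits: Cox7a2l encodes a factor that joins complexes into supercomplexes, Atp5s encodes a coupling factor and Atp5sl a protein related to it. RNA came from pancreatic islets of female mice, whose commonest cells are beta cells, the source of insulin. The 4 KO libraries carried Rip-cre and Ogt f/f, so that Cre under an insulin promoter deletes floxed Ogt, the gene of O-GlcNAc transferase, in beta cells and leaves it in the other islet cells. The 5 WT libraries had no Cre; 2 (replicates 1 and 3) were Ogt f/+ and 3 were Ogt f/f, so an effect of the Cre transgene and of the loss of Ogt cannot be told apart. The sources used here do not give the mice's age. Run 1 held 2 KO and 3 WT libraries and the later pool, called run 3 here, held 2 of each.

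Electrons enter the chain at complex I or, from succinate, at complex II, which is also an enzyme of the tricarboxylic acid cycle. Ubiquinone carries them to complex III, cytochrome c carries them on to complex IV, and complex IV reduces oxygen to water. The proton gradient built on the way drives complex V, the ATP synthase. In beta cells the ATP made from glucose closes potassium channels and so triggers insulin release. Several core subunits of complexes III, IV and V are encoded in mitochondrial DNA and are not analysed here, since the count table has 0 genes with their prefix.

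Total counts lay between 3796043 and 6073537 per library, and 14506 to 21094 genes had at least 1 count. The respiratory genes took 0.308% to 0.419% of the counts in KO libraries and 0.280% to 0.377% in WT libraries. Rn45s, the precursor of ribosomal RNA, made up 11.9% to 19.4% of counts in KO libraries and 9.62% to 28.5% in WT libraries, with the highest share of each run in WT replicates 2 and 5. Ogt had between 23.7 and 39.3 CPM (counts scaled to library size by TMM) in KO libraries and between 54.1 and 83.0 CPM in WT libraries, a log2 fold change of -1.30 ± 0.14 (SE; adjusted p = 2.44e-05, edgeR quasi-likelihood test). Whole islets also hold cells that keep Ogt, and in bulk RNA fewer cells of a type and less RNA per cell cannot be told apart. The labels name no animals, so the spread behind each p-value is that between libraries and may be technical. The defining beta cell markers were present: the 10 beta cell markers summed to 42850 to 83070 CPM in KO libraries and 47900 to 110200 CPM in WT libraries. Of the 10, 5 were lower in KO at the same threshold (50%, against 8.96% of all genes). Their median log2 fold change was -0.43, so this list was shifted although the summed ranges overlapped.

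Per gene length, the ATP synthase headed the list. Among the 49 genes Atp5a1, which encodes the alpha subunit, averaged 259.9 ± 26.1 FPKM in KO libraries and 219.5 ± 23.9 FPKM in WT libraries (SD, n = 4 and 5). Atp5b, the catalytic beta subunit, averaged 236 ± 9.50 FPKM in KO and 264 ± 34.5 FPKM in WT libraries. Atp5j, a stalk subunit, averaged 258 ± 24.0 FPKM in KO and 234 ± 24.5 FPKM in WT libraries. These 3 led in both genotypes, in another order, and neighbours in that order differed by less than the larger SD between libraries. Cox6c, an accessory subunit of complex IV, followed in both genotypes with 207 ± 33.8 FPKM in KO and 191 ± 38.8 FPKM in WT libraries. Of the catalytic or electron-carrying proteins outside complex V, Sdha averaged 97.2 ± 10.6 FPKM in KO and 94.2 ± 10.1 FPKM in WT libraries, and Cyc1 averaged 25.2 ± 4.95 FPKM in KO and 20.4 ± 2.50 FPKM in WT libraries. At the low end were the isoforms that other tissues use. Cox4i2 (lung), Cox7a1 (heart and muscle), Cox8b (heart and muscle), Cox6b2 (testis), Cox7b2 and Cox8c had at most 6 counts in any library and were not tested, which left 43 tested genes.

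**Figure D1:**
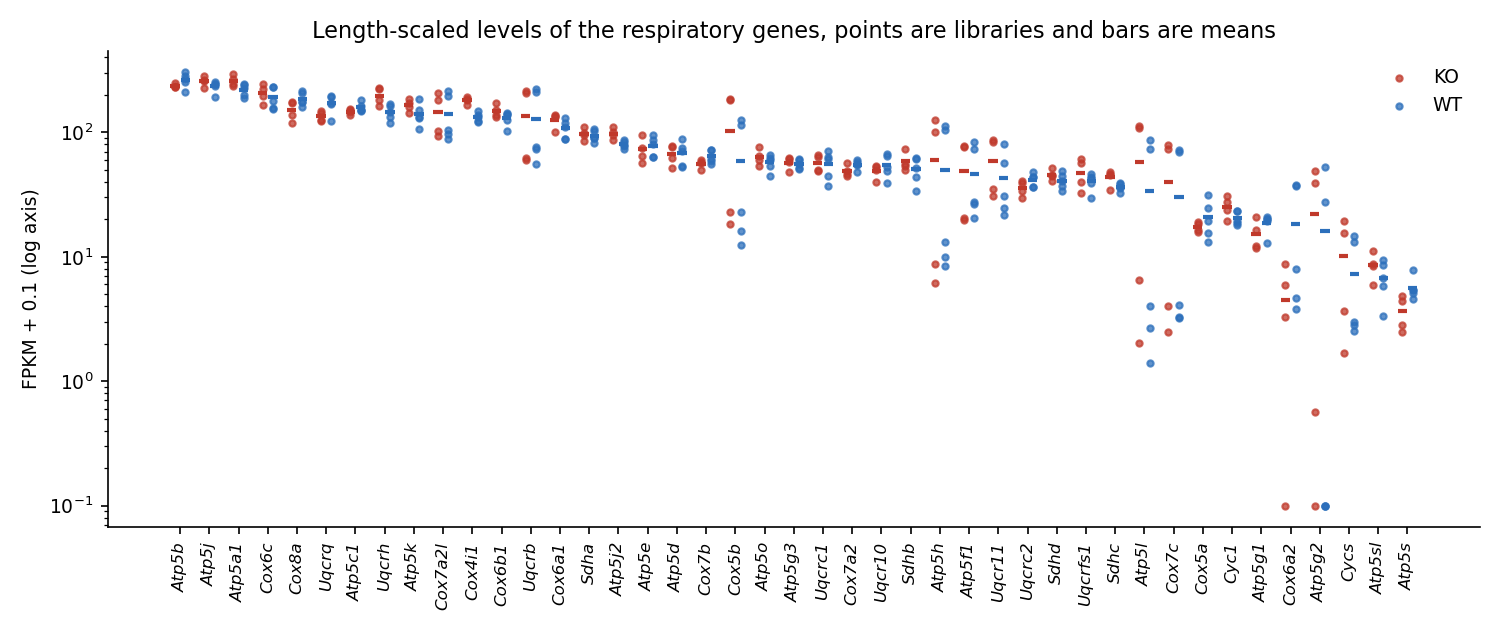
FPKM of each gene in each library, on a log axis with 0.1 added, for the 43 genes whose WT mean is at least 1 FPKM, ordered by that mean; KO in red, WT in blue, short bars are means. Atp5b, Atp5j and Atp5a1 lead, and genes such as Cox5b, Atp5h, Atp5l, Cox7c and Atp5g2 split into a low and a high group within both genotypes. Points at the bottom of the axis are listed at 0 FPKM; that of Cox6a2 is KO replicate 3, which has 8 counts in the count table.

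Between KO and WT most of these genes did not pass the test, and the 4 that rose had log2 fold changes between 0.28 and 0.55. With sequencing run in the model, 5 of 43 were called at an adjusted p under 0.05, which is 11.6%, against 18.5% of all 12501 tested genes. Higher in KO were Cox4i1, Cox5b, Uqcrh and Atp5a1 (4 of 43, against 9.56% of all genes), and lower was Cox6a2 (1 of 43, against 8.96%). The median fitted log2 fold change was 0.09 over the 43 genes and 0.02 over all genes, with 26 positive and 17 negative values. The other 38 lay between -0.49 and 0.41, with a median SE of 0.12. In CPM, KO libraries stood all above WT libraries within each run for 6 genes (11.9% of all genes), the 4 called higher, Atp5j2 and Uqcr11. KO libraries stood all below for 2 (11.0% of all genes), Atp5s and Uqcrc2. These shares are near or below those of all genes, so the counts alone are no result about the set.

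**Figure D2:**
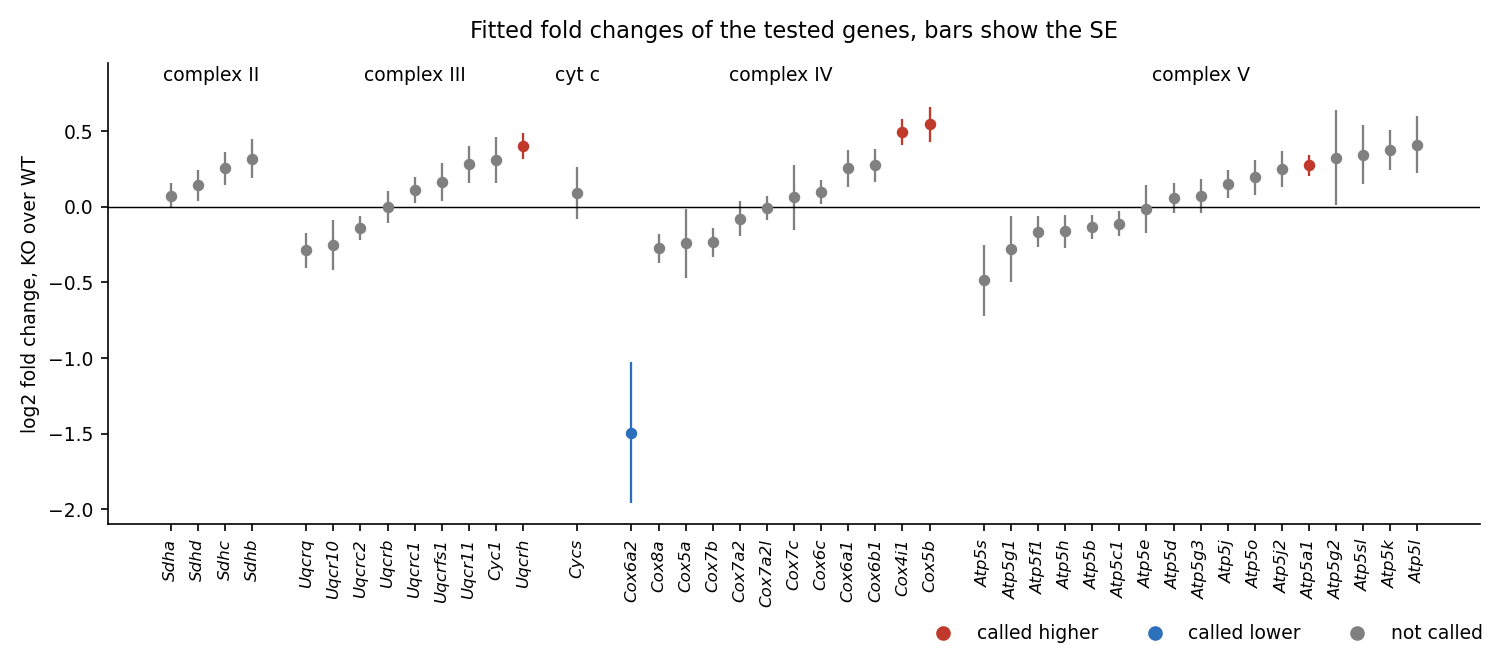
Fitted log2 fold change of KO over WT for each of the 43 tested genes, grouped by complex and ordered within it; bars are 1 SE, red and blue points are genes called higher and lower. All 4 genes of complex II have positive values and none is called, and Cox6a2 lies far below the rest with a wide bar.

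Complex II is made of Sdha, the flavoprotein that oxidises succinate, Sdhb, its iron-sulfur partner, and the membrane anchors Sdhc and Sdhd. None of the 4 passed the test, and all 4 fitted values were positive. Sdha had 338 and 299 CPM in KO libraries of run 1 and 239 and 279 CPM in those of run 3, against 309, 323 and 269.8 CPM in WT libraries of run 1 and 237 and 260.5 CPM in those of run 3. The groups overlapped in both runs, and the log2 fold change was 0.07 ± 0.08 (SE). Sdhb had 77.1, 54.0, 55.8 and 65.2 CPM in KO replicates 1 to 4, against 63.0, 63.8, 53.0, 46.2 and 37.3 CPM in WT replicates 1 to 5. Its KO libraries were above the WT libraries in run 3 but not in run 1, and its log2 fold change was 0.32 ± 0.13 (adjusted p = 0.0977, edgeR). Sdhc had 52.4, 39.4, 45.4 and 47.8 CPM in KO, against 40.8, 37.2, 43.8, 35.2 and 38.2 CPM in WT libraries (log2 fold change 0.26 ± 0.11, adjusted p = 0.119). Sdhd had 56.4, 50.6, 47.4 and 55.8 CPM in KO, against 41.5, 45.3, 51.0, 47.1 and 51.9 CPM in WT libraries (0.14 ± 0.10, adjusted p = 0.362). Both anchors overlapped between the genotypes. Without KO replicate 2, whose values of Sdhb and Sdhc were the lowest of the KO libraries, Sdhb and Sdhc were called higher.

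Complex III takes electrons from ubiquinone through the Rieske protein Uqcrfs1 and cytochrome c1, encoded by Cyc1. Uqcrh, the hinge protein that holds cytochrome c1 and cytochrome c together, was the only one of its 9 genes called. It had 81.6 and 69.1 CPM in KO libraries of run 1 and 90.6 and 93.9 CPM in those of run 3, against 61.8, 59.9 and 52.5 CPM in WT libraries of run 1 and 65.5 and 71.6 CPM in those of run 3. Every KO library was above every WT library of its run. The log2 fold change was 0.40 ± 0.09 (SE; adjusted p = 0.00522), with 0.36 in run 1 and 0.42 in run 3. Gm12854, a processed pseudogene, lies over Uqcrh on the opposite strand. Cyc1 had 36.0, 22.2, 32.2 and 25.4 CPM in KO, against 26.6, 26.9, 22.1, 21.5 and 21.5 CPM in WT libraries. KO replicate 2 lay inside the WT range, and the log2 fold change was 0.31 ± 0.15 (adjusted p = 0.166). Uqcrfs1 had 51.7, 41.9, 65.3 and 61.3 CPM in KO, against 55.4, 37.9, 50.2, 49.5 and 48.0 CPM in WT libraries (0.16 ± 0.12, adjusted p = 0.399). Uqcrc1, a core subunit that faces the matrix, had 112, 107, 92.7 and 89.2 CPM in KO, against 118, 101, 107, 82.7 and 71.5 CPM in WT libraries (0.11 ± 0.09, adjusted p = 0.397). The remaining 5 genes had fitted values between -0.29 (Uqcrq) and 0.28 (Uqcr11), and none was called.

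The promoter of Uqcrh can be set beside the 3 short motifs of factors that are known to bind promoters of respiratory genes: CGCANGCG, the centre of the NRF1 site, CCGGAAG, an ETS family site of the kind GABP binds, and AAGATGGCG, a YY1 site. Windows of 250 bases before to 50 bases after a start site (RefSeq, GRCm38.p6) were given for 35 of the 49 genes, 38 windows in all, and both strands were searched. The sequences shown are those of both called genes that have a window, and of Sdha, whose window holds the most NRF1 site centres (3); each is written along the gene's strand with matches in capitals.
Uqcrh (chr4:116075021-116075320, minus strand): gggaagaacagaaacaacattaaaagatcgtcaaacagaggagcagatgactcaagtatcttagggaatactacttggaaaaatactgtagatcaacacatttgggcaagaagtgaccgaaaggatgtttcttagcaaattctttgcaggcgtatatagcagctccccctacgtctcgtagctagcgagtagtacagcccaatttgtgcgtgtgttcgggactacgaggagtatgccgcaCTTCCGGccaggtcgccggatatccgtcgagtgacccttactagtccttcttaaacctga
Cox5b (chr1:36691237-36691536, plus strand): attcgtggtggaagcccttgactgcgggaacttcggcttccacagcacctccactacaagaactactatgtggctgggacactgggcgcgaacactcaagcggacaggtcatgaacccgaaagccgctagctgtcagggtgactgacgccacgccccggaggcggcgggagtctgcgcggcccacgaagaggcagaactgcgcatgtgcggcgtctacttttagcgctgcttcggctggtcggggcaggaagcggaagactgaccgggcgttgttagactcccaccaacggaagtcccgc
Sdha (chr13:74350191-74350490, minus strand): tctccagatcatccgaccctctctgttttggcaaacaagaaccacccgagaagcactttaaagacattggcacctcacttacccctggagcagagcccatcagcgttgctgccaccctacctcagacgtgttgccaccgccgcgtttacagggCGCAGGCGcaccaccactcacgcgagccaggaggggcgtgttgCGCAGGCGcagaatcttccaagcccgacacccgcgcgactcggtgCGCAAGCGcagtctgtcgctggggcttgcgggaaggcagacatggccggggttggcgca
The Uqcrh window holds 1 ETS match, read on the other strand, and the Cox5b window none of the 3 motifs as written. Only exact matches were counted, so a window without a match may still hold near forms of a motif. The Cox5b window does so for both the ETS motif and the NRF1 site centre. The NRF1 site centre was in 17 of the 38 windows (44.7%), against 8.21% of all 32851 windows of that length. The ETS motif was in 12 windows (31.6%), against 8.86% of all windows, and the YY1 motif in 2 (5.26%), against 1.40%. Matches of different motifs overlapped in 0 of the 38 windows. Over all tested genes 18.5% were called, and with so few genes per motif the counts that follow are no result about the motifs. Of the 16 genes with an NRF1 site centre, all tested, 0 were called, at a median log2 fold change of 0.13. Of the 12 with an ETS match 1 was called, at a median of 0.26. Of the 9 tested genes with none of the 3 motifs 1 was called (Cox5b), at a median of -0.08. These medians differ by less than the range within each class, from -0.25 to 0.41 for genes with an NRF1 site centre, and no test was made of them.

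Complex IV, cytochrome c oxidase, held 3 of the 5 called genes, 2 higher and 1 lower. They were 3 of its 12 tested genes (25%, against 18.5% of all genes). With so few genes that count is no result about the complex. Its nuclear subunits surround the catalytic core encoded in mitochondrial DNA. Cox4i1, the ubiquitous form of the largest nuclear subunit (chr8:120668222-120674207, plus strand), had 125 and 121 CPM in KO libraries of run 1 and 109 and 127 CPM in those of run 3. WT libraries had 97.2, 90.7 and 78.1 CPM in run 1 and 87.2 and 77.9 CPM in run 3. The lowest KO library was above the highest WT library across both runs. The log2 fold change was 0.49 ± 0.09 (SE; adjusted p = 0.00113), with 0.46 in run 1 and 0.51 in run 3, and it was called under all 24 alternatives tried. The annotation (GENCODE M21) places Emc8 on the opposite strand and Gm20388 on the same strand over Cox4i1; the sources used here do not say whether the counting used strand.

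Cox5b, a zinc-binding subunit next to Cox4i1 in the complex (chr1:36691449-36693681, plus strand), was higher in KO in both runs but at very different levels. It had 28.7 and 30.4 CPM in KO libraries of run 1 and 94.2 and 93.8 CPM in those of run 3, against 25.9, 18.8 and 18.7 CPM in WT libraries of run 1 and 68.2 and 55.8 CPM in those of run 3. In CPM all KO libraries were above the WT libraries of the same run. In FPKM the groups overlapped in run 1, with 18.4 and 22.6 in KO against 22.9, 16.1 and 12.3 in WT libraries, and not in run 3. The log2 fold change was 0.55 ± 0.11 (adjusted p = 0.00371, edgeR), but on log2(FPKM + 1) with limma it was 0.43 (adjusted p = 0.0853).

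Cox6a2 is the heart and muscle form of a subunit whose general form is Cox6a1; it was the only gene lower in KO, and the call rests on few counts. Its counts were 28, 19, 8 and 13 in KO replicates 1 to 4 and 102, 75, 12, 30 and 24 in WT replicates 1 to 5. In CPM these were 7.06 and 4.63 in KO libraries of run 1 and 1.33 and 1.91 in those of run 3, against 24.9, 24.3 and 2.98 in WT libraries of run 1 and 4.52 and 4.06 in those of run 3. WT replicate 3 lay below both KO libraries of its run, so the groups overlapped. The log2 fold change was -1.50 ± 0.47 (adjusted p = 0.0357, edgeR), and DESeq2 gave an adjusted p of 0.0663. Leaving out any single library other than WT replicate 3 ended the call, and without that replicate the log2 fold change was -1.81 (adjusted p = 0.000293). Markers of striated muscle summed to 9.98 to 14.4 CPM in KO and 5.37 to 12.3 CPM in WT libraries, with 0 of 2 tested called. Acinar markers summed to 2000 and 406 CPM in KO libraries of run 1 and 76.1 and 208 CPM in those of run 3, against 2324, 5853 and 4648 CPM in WT libraries of run 1 and 111 and 136 CPM in those of run 3. With the mean acinar marker level as a covariate the log2 fold change of Cox6a2 was -1.53, near the main value, and its call was lost (adjusted p = 0.0766, edgeR). Over all genes 1506 were called in that fit, against 2315 in the main fit. The part of acinar cells in the Cox6a2 difference was not tested. Itgad lies over Cox6a2 on the opposite strand.

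Expressed as a share of the pair Cox6a1 and Cox6a2, the muscle form made up 9.89%, 6.76%, 3.32% and 3.48% of the counts in KO replicates 1 to 4, against 29.5%, 29.4%, 6.52%, 9.52% and 10.6% in WT replicates 1 to 5. The mean difference within runs was -10.1 percentage points (exact two-sided permutation test within runs over 60 arrangements, p = 0.133, adjusted p = 0.222 over the 4 shares tested, smallest possible p 0.0167). Cox6a1 itself had 64.3, 63.8, 38.7 and 53.0 CPM in KO, against 59.6, 58.3, 42.8, 42.9 and 34.3 CPM in WT libraries, a log2 fold change of 0.25 ± 0.12 (adjusted p = 0.171, edgeR).

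**Figure D3:**
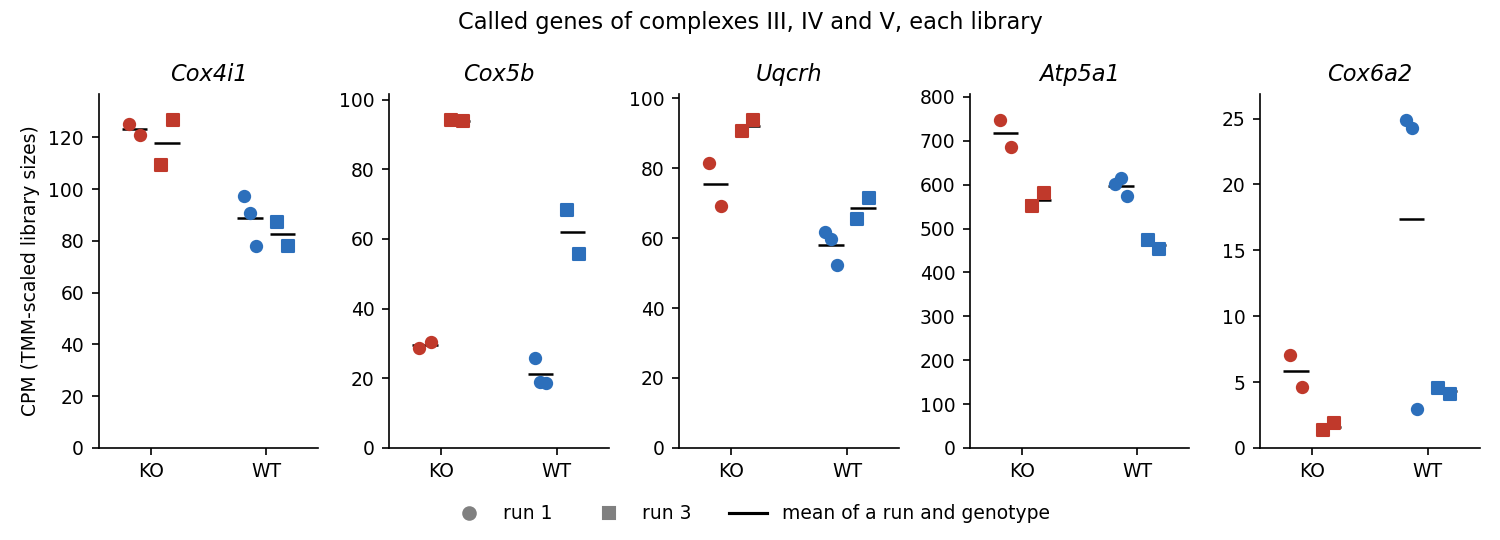
CPM of the 5 called genes in each library, KO left and WT right in each panel; circles are run 1, squares run 3 and bars the mean of a run and genotype, with the axis starting at 0. For Cox4i1, Cox5b, Uqcrh and Atp5a1 the KO points lie above the WT points of the same run, and for Cox6a2 1 WT point of run 1 lies below both KO points of that run.

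Of the other complex IV genes, Cox8a, the smallest subunit's general form, had 75.8, 71.6, 45.7 and 54.4 CPM in KO, against 85.5, 91.0, 74.3, 63.6 and 67.6 CPM in WT libraries. Its KO libraries were below the WT libraries in run 3 and overlapped in run 1, and its log2 fold change was -0.28 ± 0.10 (adjusted p = 0.0552). Cox8a was called lower with RLE size factors (adjusted p = 0.0482), without Rn45s, with Ogt f/f controls alone and without WT replicate 3. Cox5a, a subunit on the matrix side, had 9.57, 9.01, 9.97 and 11.2 CPM in KO, against 18.1, 16.2, 11.7, 9.64 and 7.94 CPM in WT libraries (-0.24 ± 0.23, adjusted p = 0.505). KO was below WT in run 1 and above WT in run 3, and the interaction of genotype and run was not called (adjusted p = 0.795). Cox7a2 had 37.0, 29.9, 32.4 and 28.0 CPM in KO, against 35.7, 35.6, 38.8, 34.0 and 27.0 CPM in WT libraries (-0.08 ± 0.12, adjusted p = 0.689). Cox7a2l, the supercomplex factor, had 108, 122, 155 and 174 CPM in KO, against 118, 103, 111, 169 and 177 CPM in WT libraries (-0.01 ± 0.08, adjusted p = 0.951). The lung form Cox4i2 made up 0% to 0.996% of the Cox4i1 and Cox4i2 counts in KO and 0% to 1.88% in WT libraries, at 6 counts or fewer.

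Complex V couples the proton gradient to ATP synthesis through a rotor ring, stalks and a catalytic head. Atp5a1, the alpha subunit of the head, was its only called gene among 17 in the main fit. In some alternatives others were called higher. These were Atp5k (limma-voom, upper quartile scaling, without WT replicate 1), Atp5l (limma-voom) and Atp5j2 (both filtered fits on FPKM). Atp5a1 is described first. It had 748 and 686 CPM in KO libraries of run 1 and 552 and 580.5 CPM in those of run 3, against 601, 615 and 574 CPM in WT libraries of run 1 and 473 and 453 CPM in those of run 3. KO libraries were above the WT libraries of their run. The log2 fold change was 0.28 ± 0.07 (SE; adjusted p = 0.0119), and the call was lost with Ogt f/f controls alone (0.26, adjusted p = 0.0552) and without WT replicates 2 and 5 (0.26, adjusted p = 0.0609). Haus1 overlaps Atp5a1 on the opposite strand. Atp5b, the catalytic partner of the alpha subunit in the same head, had 489, 451, 411 and 414 CPM in KO, against 584, 554, 519, 448 and 387 CPM in WT libraries, with overlap in run 3 (-0.13 ± 0.08, adjusted p = 0.268). The ratio of Atp5a1 to Atp5b in FPKM, chosen after the values were seen and so given without a test, was 1.17, 1.15, 1.02 and 1.06 in KO replicates 1 to 4, against 0.788, 0.855, 0.840, 0.799 and 0.885 in WT replicates 1 to 5. Every KO library was thus above every WT library in this ratio, which is taken over a gene already called higher. How often other pairs of genes separate in this way was not counted, so the order is a description only. The value 1 itself carries no meaning here, since in CPM Atp5a1 was above Atp5b in all libraries of both genotypes.

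The c subunit of the rotor ring has 3 genes, Atp5g1, Atp5g2 and Atp5g3, that encode the same mature protein behind different import signals. Atp5g1 had 8.32, 9.49, 9.64 and 13.2 CPM in KO, against 14.2, 14.3, 14.7, 12.8 and 8.11 CPM in WT libraries. Both KO libraries of run 1 were below the 3 WT libraries, and run 3 showed no such order (-0.28 ± 0.22, adjusted p = 0.413). Atp5g3 had 41.8, 36.8, 29.7 and 39.0 CPM in KO, against 39.1, 36.6, 39.8, 30.0 and 33.5 CPM in WT libraries (0.07 ± 0.11, adjusted p = 0.705). Atp5g2 had 0.504 and 0.730 CPM in KO libraries of run 1 and 22.1 and 24.2 CPM in those of run 3, against 0, 0.648 and 0 CPM in WT libraries of run 1 and 14.6 and 25.01 CPM in those of run 3. Its levels went with the run and not with the genotype (0.33 ± 0.31, adjusted p = 0.515). As shares of the 3 genes, Atp5g1 differed by -4.77 percentage points (exact permutation p = 0.150), Atp5g2 by 1.58 (p = 0.667) and Atp5g3 by 3.19 (p = 0.167); the adjusted p was 0.222 for Atp5g1 and Atp5g3 and 0.667 for Atp5g2.

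**Figure D4:**
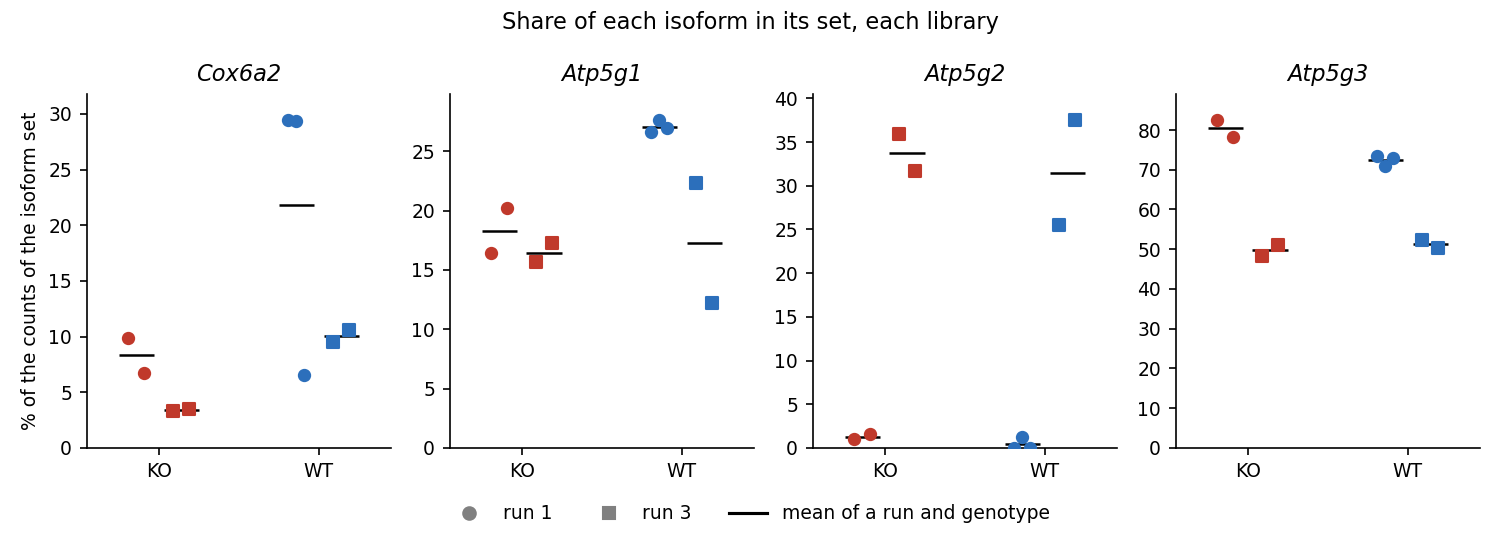
Share of counts of Cox6a2 in the pair with Cox6a1, and of Atp5g1, Atp5g2 and Atp5g3 in their set of 3, in percent for each library; KO left, WT right, circles run 1, squares run 3, bars the mean of a run and genotype. The Atp5g2 share is at most 1.55% in every run 1 library and at least 25.5% in every run 3 library of either genotype.

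Cytochrome c (Cycs), the carrier between complexes III and IV, also went with the run. It had 12.1 and 5.11 CPM in KO libraries of run 1 and 62.8 and 52.5 CPM in those of run 3, against 10.3, 8.42 and 9.95 CPM in WT libraries of run 1 and 51.2 and 47.5 CPM in those of run 3. The log2 fold change between genotypes was 0.09 ± 0.17 (adjusted p = 0.765). Between runs it was 5.77-fold higher in run 3.

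In all, 7 genes were at least 2-fold higher in run 3: Atp5g2, Atp5l, Cox7c, Cycs, Atp5h, Cox5b and Atp5f1, from 54.6-fold to 2.17-fold. Over all tested genes 7.86% were. The genes were compared with the transcripts of GENCODE M21 for near-identical copies, a check and thresholds chosen after the values were seen. A copy was another gene whose transcript matched the coding sequence at 95% identity or more over at least 100 bases. All 7 had such a copy, covering between 90.1% and 100% of the coding sequence, against 11 of the other 35 genes with a coding sequence, of which 7 had at least 90% covered. The median run difference (log2, run 3 over run 1) was 0.47 for the 18 genes with a copy and -0.28 for the 24 without, and no gene without a copy exceeded 0.28. Of the 41 copies only 3 have a count of their own in the table. Whether the reads of the runs were assigned differently to such copies was not tested. Copies were sought for the respiratory genes only, so the share with a copy among all genes higher in run 3 is not known.

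The called gene Cox5b is among them. Its copy Gm11273 (chr13:21501029-21501418, minus strand, annotated as protein coding) differs at 3 of the 387 coding bases, an identity of 99.2%. Cycs matches Gm10053 (chr19:24875686-24876631, plus strand) at all of its 315 coding bases and the processed pseudogene Gm10108 (chr5:13121448-13121766, minus strand) at 99.4%. The stretches below set the 2 genes beside these copies. They cover coding bases 164 to 243 of Cox5b and 37 to 116 of Cycs, with differences from the gene in capitals.
Cox5b: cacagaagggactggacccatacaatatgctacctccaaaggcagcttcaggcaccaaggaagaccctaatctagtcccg
Gm11273: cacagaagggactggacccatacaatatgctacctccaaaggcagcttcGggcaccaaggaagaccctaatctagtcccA
Cycs: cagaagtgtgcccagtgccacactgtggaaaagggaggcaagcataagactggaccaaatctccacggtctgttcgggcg
Gm10053: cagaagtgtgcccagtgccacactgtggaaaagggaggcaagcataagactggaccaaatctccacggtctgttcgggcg
Gm10108: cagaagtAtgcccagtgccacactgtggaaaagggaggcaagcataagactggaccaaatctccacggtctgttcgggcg
Cox4i1, Uqcrh and Atp5a1 have no copy by this measure, and their run differences were -0.08, 0.26 and -0.35 on the log2 scale. Each of them overlaps another gene on the opposite strand. Levels of Cox5b, Cycs and the other 5 are uncertain because they differed between runs. Their comparison between genotypes rests on the run term and on values within runs. The cause of the run difference was not tested. Some further genes with a copy split by run in FPKM. Uqcrb had 55.5 to 76.4 FPKM in run 1 and 206.5 to 222.7 FPKM in run 3, Uqcr11 21.7 to 34.8 and 56.7 to 87.0, and Cox7a2l 88.3 to 103.5 and 182.7 to 215.2. Atp5g1 has a copy over 100% of its coding sequence at 99.75% identity, and its run difference was -0.09 (log2).

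**Figure D5:**
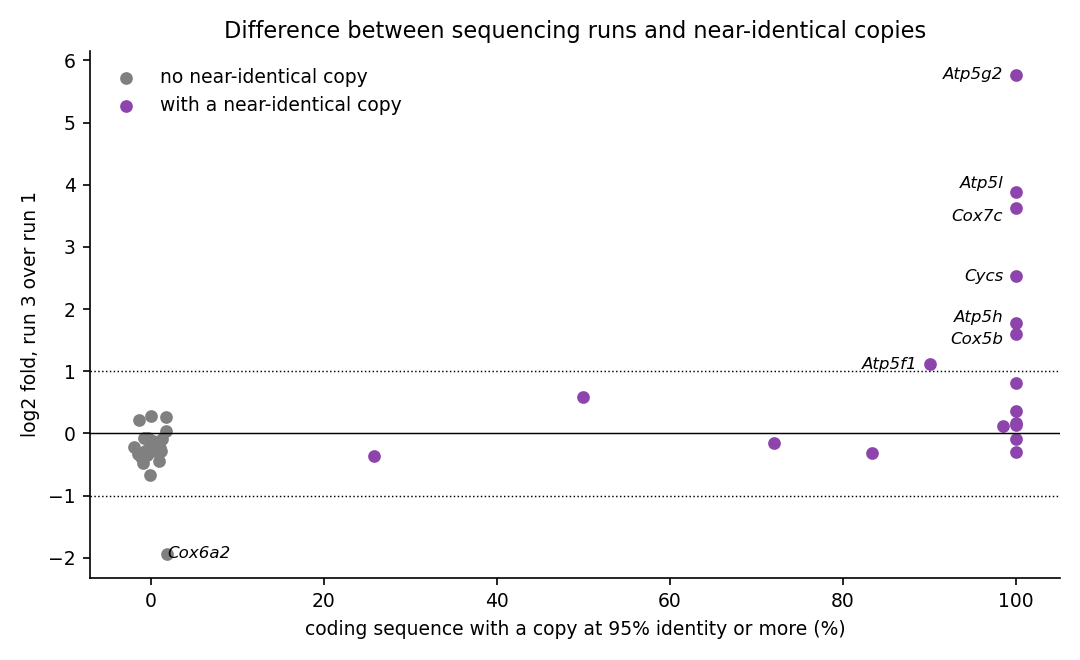
Log2 fold of run 3 over run 1 against the share of the coding sequence that has a copy at 95% identity or more, for the 42 tested genes with an annotated coding sequence; dotted lines mark a 2-fold difference, and points at 0% are spread sideways by a small random amount for legibility. The 7 genes above the upper line lie at 90.1% or more, and Cox6a2 alone lies below the lower line.

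Within run 1, 0 of the 43 genes were called (edgeR; 10 at an unadjusted p under 0.05), against 6.05% of all genes. Within run 3, Cox4i1, Cox5b, Uqcrh and Sdhb were called (15 at an unadjusted p under 0.05), against 8.17% of all genes. The genotype difference itself was not called as different between runs for any gene: the interaction was called for 0 of the 43 (edgeR; 2 at an unadjusted p under 0.05), and for 0.0% of all genes. The median log2 fold change was 0.01 in run 1 and 0.12 in run 3.

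The marker lists of other cell types were short, so their shares of called genes rest on few genes. Of 11 tested acinar cell markers 2 were called lower (18.2%, against 8.96% of all genes). All 11 fitted values were negative (edgeR, 9 at an unadjusted p under 0.05), at a median log2 fold change of -1.18. That median was -1.8 within run 1 and 0.16 within run 3. Delta and PP cell markers summed to 3907 to 5510 CPM in KO and 2986 to 4028 CPM in WT libraries, with 2 of 6 called higher (33.3%, against 9.56% of all genes). Alpha cell markers summed to 24000 to 64380 CPM in KO and 20980 to 38730 CPM in WT libraries, with 1 of 7 called higher (14.3%), and the ranges overlapped. Fibroblast and stellate cell markers summed to 303 and 180 CPM in KO libraries of run 1 and 843 and 772 CPM in those of run 3, against 158, 210 and 85.5 CPM in WT libraries of run 1 and 484 and 691 CPM in those of run 3. Of those 5 tested markers 1 was called higher (20%), and all 5 fitted values were positive (edgeR, 4 at an unadjusted p under 0.05). Their median log2 fold change was 0.56, against 0.27 for alpha cell and 0.46 for delta and PP cell markers. Macrophage markers summed to 29.7 to 53.1 CPM in KO and 28.1 to 43.2 CPM in WT libraries, with 1 of 4 called higher (25%). None of 6 duct and 6 endothelial cell markers was called (edgeR; 2 and 0 at an unadjusted p under 0.05). The part of these cell types in the 4 higher respiratory genes was not tested. With the mean acinar marker level as a covariate the 4 stayed called and Sdhb joined them.

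Complex I subunits and mitochondrial ribosomal proteins are also encoded in the nucleus and imported. Of 36 tested complex I subunit genes 2 were called higher and 3 lower (13.9%), at a median log2 fold change of 0.07. Of 77 mitochondrial ribosomal protein genes 11 were called higher and 2 lower (16.9%), at a median of 0.11. All 3 groups, complexes II to V included at 11.6% and a median of 0.09, had a smaller share of called genes than the 18.5% of all genes.

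Of the assembly factors few were called, and the counts are to be read against the 18.5% of all genes called. For complex II, 1 of 4 tested was called: Sdhaf1, which guides the iron-sulfur subunit, had 14.9, 13.4, 10.3 and 10.6 CPM in KO, against 23.0, 23.0, 18.4, 13.7 and 17.7 CPM in WT libraries. It fell by 0.59 ± 0.16 on the log2 scale (SE, adjusted p = 0.0149, edgeR), with KO below WT in both runs. The protein-coding gene E130208F15Rik lies over Sdhaf1 on the opposite strand. The call was lost in 4 of the 24 alternatives: with no run term (adjusted p = 0.0827), without WT replicates 2 and 5 (0.0903), without KO replicate 2 and WT replicate 2 (0.0778) and with the acinar covariate (0.0523). For complex III, 0 of 6 tested were called (edgeR; 0 at an unadjusted p under 0.05); the lowest p belonged to Uqcc3 (0.34 ± 0.16, adjusted p = 0.159) and Ttc19 (-0.22 ± 0.12, adjusted p = 0.201). For complex IV, 3 of 22 tested were called, 2 higher and 1 lower (13.6%, below the share of all genes). Cox16, Pet117 and Sco2 were not tested. Pet117 and Sco2 had 0 counts in every library, yet averaged 9.44 and 1.79 FPKM in KO and 23.55 and 2.90 FPKM in WT libraries. Cox16 averaged 1.99 CPM and 32.8 FPKM in KO, and 1.61 CPM and 40.2 FPKM in WT libraries. Each overlaps another gene on the same strand, and why counts and FPKM differ was not tested.

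Coa5, a small assembly factor of complex IV, had 45.1, 38.0, 44.4 and 45.2 CPM in KO, against 65.0, 55.1, 55.2, 58.0 and 62.9 CPM in WT libraries, and fell by 0.46 ± 0.10 (adjusted p = 0.00388). Every KO library was below every WT library. Lrpprc, which stabilises mitochondrial messenger RNAs, had 197, 192, 199.7 and 182 CPM in KO, against 167, 166, 158, 129.8 and 138 CPM in WT libraries. It was higher by 0.37 ± 0.08 (adjusted p = 0.00407), and the groups did not overlap, but the call was lost with no run term (adjusted p = 0.0768). Higd2a, a factor of complex IV assembly, had 20.7, 23.4, 10.8 and 17.8 CPM in KO, against 17.8, 15.5, 11.2, 8.28 and 10.1 CPM in WT libraries (0.60 ± 0.19, adjusted p = 0.0372). Its call was lost in 7 of the 9 fits that leave out 1 library.

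For complex V, 0 of 4 tested were called (edgeR; 1 at an unadjusted p under 0.05). Atpaf2, a chaperone of the alpha subunit, had a log2 fold change of 0.44 ± 0.19 (adjusted p = 0.127), and the inhibitor Atpif1, which halts the synthase when it runs backwards, -0.10 ± 0.09 (adjusted p = 0.463). Of 5 tested subunits and partners filed under other symbols 0 were called (edgeR; 2 at an unadjusted p under 0.05): Ndufa4, now counted as a subunit of complex IV, had 0.38 ± 0.14 (adjusted p = 0.0776) and the assembly factor Smim20 -0.53 ± 0.21 (adjusted p = 0.0934). Of 12 genes of ubiquinone synthesis and handling 0 were called (edgeR; 4 at an unadjusted p under 0.05), with Coq10a at -0.49 ± 0.17 (adjusted p = 0.0542) and the methyltransferase Coq5 at 0.37 ± 0.13 (adjusted p = 0.0545).

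Of 12 regulators that drive transcription of respiratory genes, 2 were called higher and 1 lower (3 of 12, against 18.5% of all genes); with so few genes the count is no result about the list. Nrf1, nuclear respiratory factor 1, had 47.4, 51.4, 48.9 and 46.2 CPM in KO, against 66.4, 67.0, 71.4, 62.6 and 59.3 CPM in WT libraries, and fell by 0.42 ± 0.09 (adjusted p = 0.00374). Its groups did not overlap. Gabpb1, which encodes the partner of the ETS factor Gabpa, had 19.2, 24.3, 27.3 and 25.7 CPM in KO, against 16.4, 11.98, 12.7, 17.3 and 10.1 CPM in WT libraries. It was higher by 0.80 ± 0.18 (adjusted p = 0.0051), again without overlap, and the call was lost on log2(FPKM + 1) with no filter (adjusted p = 0.0953). Gabpa itself had a log2 fold change of 0.25 ± 0.09 (adjusted p = 0.0774), and it overlaps Atp5j on the opposite strand. Ppargc1a, the coactivator PGC-1alpha, had 6.05, 2.68, 5.82 and 4.84 CPM in KO, against 2.93, 0.972, 0.497, 2.86 and 1.35 CPM in WT libraries. It was higher by 1.41 ± 0.43 (adjusted p = 0.0313), and the groups overlapped, since KO replicate 2 was below WT replicates 1 and 4. The call on Ppargc1a was lost in 11 of the 22 alternatives in which it could be computed.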

How the data were processed

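RNA was sequenced from islets that were isolated with collagenase, hand-picked and cultured overnight, and prepared with a low-input kit that keeps strand and takes total RNA, per the labels' protocols. The authors deposited read counts per gene symbol and FPKM values, with 1 column per library in each. Per the submitters' processing notes, the build was mm10 and the tools included Bowtie2 2.2.4.0, Cuffdiff 2.2.1, FastQC and edgeR, listed without their roles. The sources used here do not say how reads that match several places were counted or whether strand was used, which leaves overlapping genes and genes with copies uncertain. The deposited FPKM values carry no depth; they serve to compare levels between genes and as an alternative unit.

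Date-like symbols (27 of the rows, 0.133% to 0.186% of a library's counts) were left out. Libraries held 3796043 to 6073537 counts, so genes at a few CPM rest on few reads. Counts were tested with edgeR 4.0.16 (R 4.3.3), its quasi-likelihood test, TMM, the default filter by genotype and a model of run and genotype, over 12501 genes with Benjamini-Hochberg adjustment. The SE was derived from the fold change and its F statistic. The script was tested on simulated data. No 2 libraries of a genotype agreed within counting noise (chi-square per degree of freedom 3.73 or more), so none was treated as a repeat deposit; this does not show that they came from separate animals. Alternatives were no run term, DESeq2 1.42.0, limma-voom (limma 3.58.1), other size factors and filters, other library sets, an acinar covariate, limma on FPKM and leaving out each library. Isoform shares were tested by exact permutation within runs. Copies were sought with blastn 2.17.0. The genes given per library are those called, the core and isoform genes of each complex, and from each pathway list up to 4 called genes, or up to 2 with the lowest p where none was called. The members, lists and tests were chosen with earlier results of these data known.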

Additional observations from a re-analysis of the deposited data

Results flagged for a closer look

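Of 84 groups of 4 or 5 libraries examined, 2 held a library far from the others, and chance alone gives about 1 in 20. Atp5g1, a gene of the rotor ring of ATP synthase, had 8.11 CPM in WT replicate 5, against 12.8 to 14.7 CPM in the other 4 WT libraries. Coa5, the complex IV assembly factor, had 38.0 CPM in KO replicate 2, against 44.4 to 45.2 CPM in the other 3 KO libraries, and all 4 were below the WT libraries.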

How the results depend on the processing

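The number of the 43 genes called higher in KO was 4, and 1 with no run term (Cox4i1 alone). Over the fits that leave out 1 library it ranged from 4 to 8, the 8 coming without KO replicate 2 (added were Cox6b1, Cyc1, Sdhb and Sdhc). It was 6 with limma-voom and without KO replicate 2 and WT replicate 2, and 5 with upper quartile scaling and with the acinar covariate. It was 3 with f/f controls alone, without WT replicates 2 and 5, and on FPKM with no filter. With no run term Atp5a1 (adjusted p = 0.347), Cox5b (0.445) and Uqcrh (0.0705) were lost; Cox5b was lost on FPKM as well (0.0853 to 0.177). The number called lower was 1, and 0 with no run term, DESeq2, limma-voom, the acinar covariate, each fit on FPKM, without WT replicates 2 and 5, and without KO replicate 2 and WT replicate 2. It was 2 (Cox6a2 and Cox8a) with RLE size factors, without Rn45s and with Ogt f/f controls alone, and between 0 and 2 when 1 library was left out, the called gene being Cox7b without KO replicate 1, Uqcrq without WT replicate 5, and Cox6a2 and Cox8a without WT replicate 3. The median log2 fold change lay between 0.06 and 0.15 in all 24 alternatives. Values near 0 that changed sign, none called, were Cox7a2l (0.0409 with no run term, 0.00793 with upper quartile scaling, 0.0054 with f/f controls alone, -0.0618 to 0.0339 with 1 library left out), Cycs (-0.0123 without WT replicates 2 and 5, -0.0251 to 0.248 with 1 library left out), Atp5g3 (-0.0166 to 0.133 with 1 library left out) and the Atp5g2 share (-1.45 to 4.60 percentage points with 1 library left out). The cause of these changes was not tested. Counts within runs and of the interaction did not move with RLE size factors or with genes kept at 1 CPM or more in 4 libraries. No paired analysis was possible because the labels carry no replicate numbers that pair the samples. Depth limits the 6 untested isoforms, which had at most 6 counts per library.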
